A study of Mus musculus with 5 samples.

Results

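The genes described here encode the secreted proteins that bind insulin-like growth factors (IGFs) outside the cell, and the proteins that set them free again: Igfbp2, Igfbp3, Igfbp4, Igfbp5, Igfbp6, Igfbp7, Pappa, Pappa2, Stc1 and Stc2. They were taken by gene symbol, by a rule that uses no measured value but was written with earlier results of these data known, and are 10 of the 29495 genes with counts. The libraries came from mouse glioma cells of genotype p53-/-;NF1-/-;tdTomato+/-, taken from a tumor model of mixed CD-1 and C57BL/6 background, so that controls and treated cells lacked p53 and NF1 alike. The cells shared a dish with olfactory bulb (OB) neurons of C57BL/6 pups (P2~3) and were then sorted by flow cytometry on the red fluorescent protein tdTomato. Polyadenylated RNA was sequenced from 2 libraries without added factor (control replicates 1 and 2) and from 3 after overnight incubation with 20 ng/mL IGF-1 (IGF-1 replicates 3, 4 and 5). Plating medium for the neurons held insulin and serum, so the controls had not been kept free of insulin-like factors. The labels do not state a driver for the tumor alleles, whether the cells are 1 line, or whether the libraries came from separate cultures, and p-values therefore measure the spread between these libraries only, which may be technical.

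IGF binding proteins hold IGF-1 and IGF-2 in the extracellular space, where they can keep the ligand from its receptor, prolong its life or store it in the matrix. Pappalysins are metalloproteinases that cut some of these proteins: PAPP-A cuts IGFBP-4 and IGFBP-5, PAPP-A2 cuts IGFBP-3 and IGFBP-5, and the cut lets the ligand go. The stanniocalcins STC1 and STC2 are secreted glycoproteins that bind PAPP-A and block its activity. In brain tumors several members of this axis are secreted by tumor cells and vessels. RNA levels do not show how much protein was secreted or cut.

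Total counts were 16944315 to 20144181 per library. IGF-1 replicate 5 departed most from the controls: among 9779 genes of at least 10 CPM (CPM, the count relative to the library total after scaling by TMM factors), 5.81% were at least 1.3-fold above the control mean in it, against 1.88% and 2.09% in replicates 3 and 4. Results that rest on it are therefore given with and without it, where the fit without it is edgeR's on the other 4 libraries. Markers of the glioma and oligodendrocyte progenitor type were abundant, with all 7 found and a summed level of 3798 to 3909 CPM in the controls and 3951 to 4433 CPM with IGF-1. Markers of cells that are known sources of binding proteins in brain were scarce: the summed level over all libraries was 5.63 to 9.21 CPM for 5 endothelial, 2.30 to 4.01 CPM for 7 pericyte and 20.5 to 27.9 CPM for 7 meningeal fibroblast genes. Cdh5, which defines endothelium, had 0 to 3 counts per library, and Pdgfrb, of pericytes and fibroblasts, had 2 to 6. Other genes of these lists had more counts: Flt1 (endothelial) 95 to 144, Rgs5 (pericyte) 12 to 39 and Col3a1 (fibroblast) 83 to 173. Flt1, Rgs5 and Col3a1 were chosen after their values were seen. For 7 microglial and macrophage genes the sums were 7.73 and 7.49 CPM in control replicates 1 and 2. They were 5.84, 5.88 and 7.44 CPM in IGF-1 replicates 3, 4 and 5. For 6 astrocyte genes the sums were 290 and 281 CPM in the controls and 263, 279 and 280 CPM with IGF-1. Both of these sums lay lower in every IGF-1 library than in either control. The sum was 1127 to 1243 CPM for 7 genes of olfactory ensheathing cells, a list that holds the glial progenitor gene Sox10. None of the markers tested was called different between the groups by edgeR, where 1.02% of all genes tested were called. The filter on low counts left 1 of 7 microglial, 2 of 5 endothelial, 2 of 7 pericyte and 5 of 7 fibroblast genes. It left 6 of 6 astrocyte, 5 of 7 ensheathing cell, 6 of 9 neuronal and 7 of 7 glioma genes. Markers that it removed could not be called. In bulk RNA, fewer cells of a type and less RNA per cell cannot be told apart.

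Igfbp3 and Stc2 were the members with the most reads, and the DNA upstream of their annotated starts is shown so that both genes can be placed. The sequences are from RefSeq on build GRCm38.p6, on the minus strand, 5′ to 3′ (Igfbp3 at chr11:7213924-7214173 and Stc2 at chr11:31370075-31370311), and end just before the first transcript start that the annotations place in the window. Capitals mark matches, on either strand, to any of 9 motifs. For core promoters the motifs were TATAAA, the classic form of this element near a transcript start, and its variant form TATATA. Upstream boxes searched were CCAAT, which is bound by the factor NF-Y, and for Sp1 family factors the motif GGGCGG. For factors that respond to signals the motifs were TGTTTAC as the site of FOXO proteins, TGANTCA as the site of AP-1, and TGATGNAA as the site of ATF4. The E-box searched was CACGTG, and it contains the core motif of hypoxia-inducible factors, which is ACGTG.
Igfbp3: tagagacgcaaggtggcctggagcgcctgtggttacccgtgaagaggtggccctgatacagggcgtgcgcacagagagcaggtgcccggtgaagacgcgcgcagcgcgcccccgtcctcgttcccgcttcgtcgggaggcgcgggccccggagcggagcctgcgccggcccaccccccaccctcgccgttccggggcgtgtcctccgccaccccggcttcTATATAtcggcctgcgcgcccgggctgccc
Stc2: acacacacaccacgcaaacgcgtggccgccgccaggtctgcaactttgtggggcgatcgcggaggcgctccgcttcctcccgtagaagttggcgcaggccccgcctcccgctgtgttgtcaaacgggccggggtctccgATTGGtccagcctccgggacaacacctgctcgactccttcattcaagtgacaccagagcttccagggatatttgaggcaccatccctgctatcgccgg
The Igfbp3 window held 1 match, TATATA, which begins 30 bases before the window's end and is present in 5.25% of the table's 32817 windows, each taken at the same length. The Stc2 window held 1 match, CCAAT read on the opposite strand, which 32.8% of those windows hold when shortened to its length. GC content was 73.2% for Igfbp3 and 63.3% for Stc2, against a median of 52.4% over the windows. Of the 10 members, 8 had a window in the table, and Pappa and Stc1 had none.

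The axis was dominated by 1 binding protein. Igfbp3, whose protein carries most IGF in serum as part of a ternary complex, stood above 99.2% of genes in mean CPM. It made up 98.1% (Wilson 95% interval 97.7 to 98.4) of the counts over the 6 binding-protein genes in control replicate 1, and 97.6% to 98.6% across the 5 libraries. Such intervals cover counting error only. Per kilobase of principal transcript, Igfbp3 averaged 199 CPM over the 5 libraries, Stc2 4.74, Igfbp7 3.50, Igfbp2 1.82 and Stc1 0.560 CPM. Igfbp5 averaged 0.298, Igfbp6 0.267, Pappa 0.178, Igfbp4 0.161 and Pappa2 0.00233 CPM per kilobase.

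In that order of levels per kilobase, Igfbp3 lay above Stc2 in every library, with a lowest value of 167 against a highest of 5.26 CPM per kilobase. Stc2 (3.69 to 5.26) and Igfbp7 (3.00 to 4.28) overlapped over the libraries, and so did each further pair of neighbours down to Pappa and Igfbp4, except Igfbp7 and Igfbp2 (0.971 to 2.31). Pappa2 lay below Igfbp4 without overlap. Igfbp7 overlaps the gene Polr2b in the annotation, and Stc1 a long non-coding RNA gene, and the sources used here do not give whether strand was used in counting. For these 2 members, reads could therefore be shared with the overlapping gene.

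**Figure D1:**
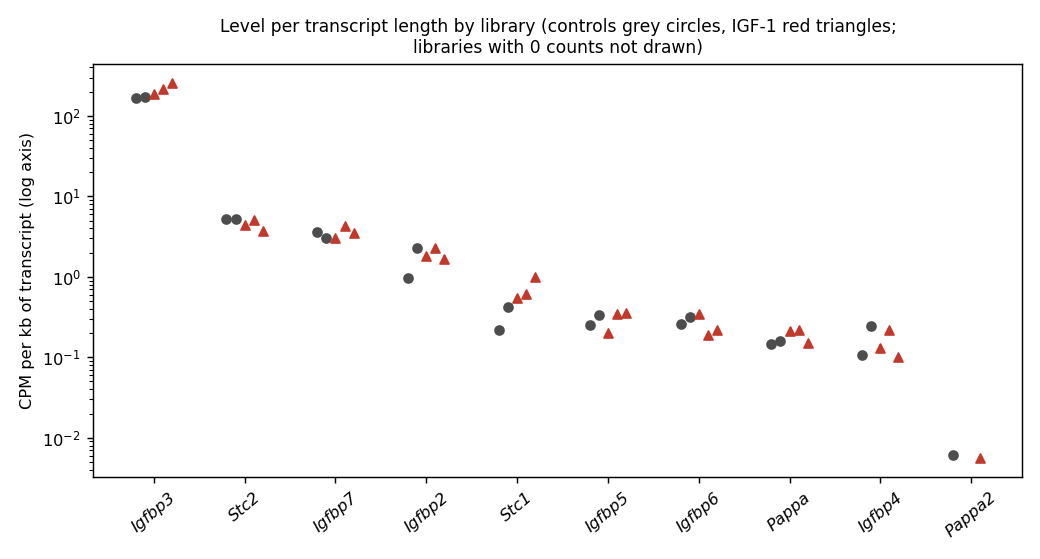
Level of each member per kilobase of principal transcript (CPM per kb, log axis) in every library, ordered by the mean over 5 libraries (controls grey circles, IGF-1 red triangles; libraries with 0 counts not drawn). Igfbp3 sits between 167 and 260 CPM per kb, while Stc2, next in order, reaches at most 5.26.

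Across the comparison, none of the 8 members that passed the filter on low counts was called different between the groups by an adjusted p below 0.05 (edgeR quasi-likelihood F-test, Benjamini-Hochberg over 15919 genes), where 1.02% of all genes tested were called, 0.685% higher and 0.339% lower. By unadjusted p below 0.05, 2 of the 8 were higher and 0 lower, where 7.1% of all genes were higher and 5.57% lower, or 12.7% in either direction. DESeq2 gave an adjusted p for 3 of the 8 members, Igfbp3, Igfbp7 and Stc2, and for the other 5 none. Of those 3 it called 1 higher and 0 lower, where it called 1.6% of 11907 genes higher and 0.747% lower, or 2.35% in either direction. The median log2 fold change of the 8 was 0.18, and that of all tested genes was -0.0076, or 0.20 and -0.0057 without IGF-1 replicate 5. Values did not overlap between the groups for Igfbp3 and Stc1, which were higher, and Stc2, which was lower. That is 3 of 8 tested members, where 33.1% of all tested genes did not overlap, 16.2% with IGF-1 all above and 16.9% all below.

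Igfbp3 was read at 404 and 412 CPM in the controls. With IGF-1 it was read at 450, 516 and 629 CPM in replicates 3, 4 and 5. Every IGF-1 library lay above both controls, and replicate 5 was the highest. The means were 408 ± 5.63 CPM (SD, n = 2) and 532 ± 90.5 CPM (SD, n = 3). The log2 fold change was 0.38 with a standard error of 0.12 and a 95% interval of 0.13 to 0.64 (edgeR adjusted p = 0.196).

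The spread of Igfbp3, at 6978 to 12861 counts, was set beside that of 365 other genes whose mean count was within 1.5-fold of its own. Relative to counting error alone, the chi-square statistic per degree of freedom was 1.33 between the 2 controls, where the median of those genes was 2.91. Among the 3 IGF-1 libraries it was 297 against a median of 31.6, above 94% of those genes. Between replicates 3 and 4 it was 83.4 against a median of 2.53, above 99.5% of them. The treated libraries thus differed more in Igfbp3 than in most genes of like depth, also without replicate 5. Relative to the control mean, Igfbp3 stood at 1.10-fold, 1.27-fold and 1.54-fold in replicates 3, 4 and 5. Replicate 5, the library with the most genes away from the controls, also had the largest Igfbp3 ratio.

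The call for Igfbp3 depended on replicate 5 and on the tool. Without IGF-1 replicate 5 the log2 fold change was smaller, at 0.25, but its standard error was 0.04 and edgeR gave an adjusted p of 1.6e-06. That fit called 9.14% of genes, 5.49% higher and 3.65% lower. Its variation is moderated over all genes, so the standard error of 0.04 does not measure the spread of Igfbp3 alone. DESeq2 without replicate 5 gave 0.25 with a standard error of 0.10 and an adjusted p of 0.142. With all 5 libraries, DESeq2 gave 0.39 and an adjusted p of 0.0395. Limma-voom with sample quality weights, in which replicate 5 had a weight of 0.292 against 1.34 to 1.39 for the others, gave 0.28 and an adjusted p of 0.0239, where it called 5.09% of genes, 3.02% higher and 2.08% lower. The direction was higher under each of the 14 alternatives, while 10 of them did not pass the threshold.

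**Figure D2:**
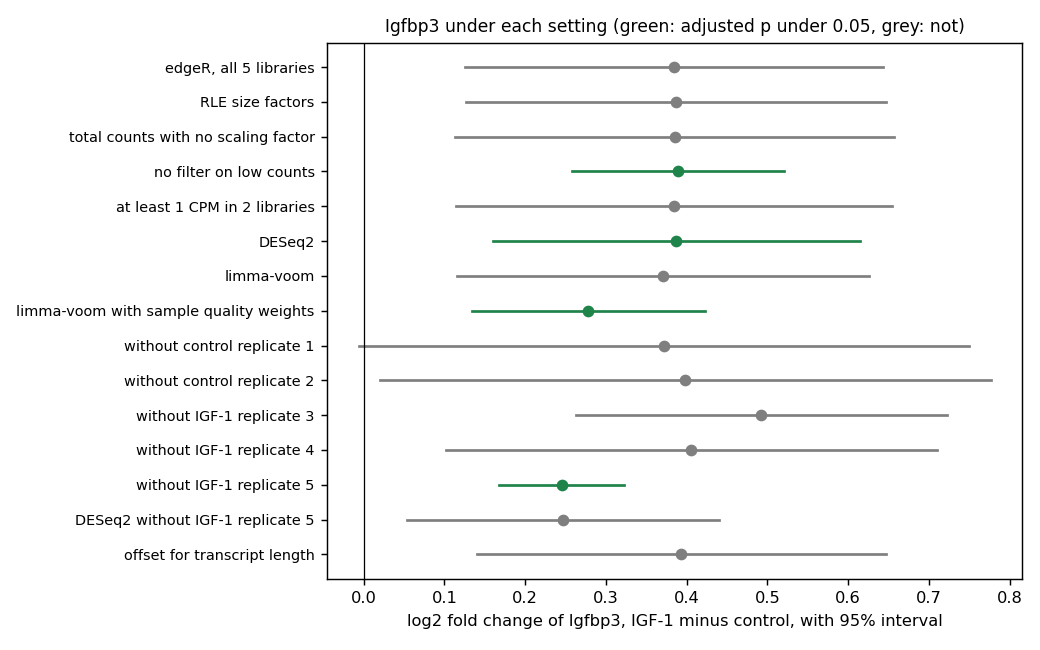
Log2 fold change of Igfbp3 with its 95% interval under edgeR with all libraries and each alternative (green, adjusted p under 0.05; grey, not). The estimates lie between 0.25 and 0.49, and 4 of the 14 alternatives passed the threshold.

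The summed neuronal markers moved the same way as Igfbp3, at 57.2 and 58.6 CPM in the controls and 66.2, 67.8 and 74.8 CPM with IGF-1, over 9 of 10 genes found. Tubb3 made up most of that sum, at 48.2 to 57.7 CPM, and Syt1 was at 11.4 CPM in replicate 5 against 4.67 to 5.56 in the other libraries. Rbfox3, which defines mature neurons, had 0 to 1 counts per library. Summed glioma and oligodendrocyte progenitor markers also lay higher with IGF-1. They were at 3909 and 3798 CPM in control replicates 1 and 2, and at 3997, 3951 and 4433 CPM in IGF-1 replicates 3, 4 and 5. Summed astrocyte markers, and summed microglial and macrophage markers, lay lower in every IGF-1 library than in either control. The part of other cells in the Igfbp3 difference was not tested. Summed markers of meningeal fibroblasts, which also secrete binding proteins, were at 20.5 CPM in replicate 5 and 20.9 to 27.9 CPM in the other libraries.

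The genes nearest to Igfbp3 in pattern over the 5 libraries, by root-mean-square difference of log2 CPM centred on each gene's mean, were Adgrl2 (0.0225), Tbkbp1 (0.0319) and Wnk2 (0.0397). The median difference over the 13988 genes of at least 1 CPM compared was 0.27. Adgrl2 encodes an adhesion receptor of the latrophilin family, Tbkbp1 a partner of the kinase TBK1, and Wnk2 a kinase of the WNK family. Their log2 fold changes were 0.41, 0.39 and 0.36, and none passed (edgeR adjusted p = 0.326, 0.285 and 0.292). Without replicate 5 they were 0.25, 0.27 and 0.21. These are descriptions over 5 libraries, chosen by likeness.

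**Figure D3:**
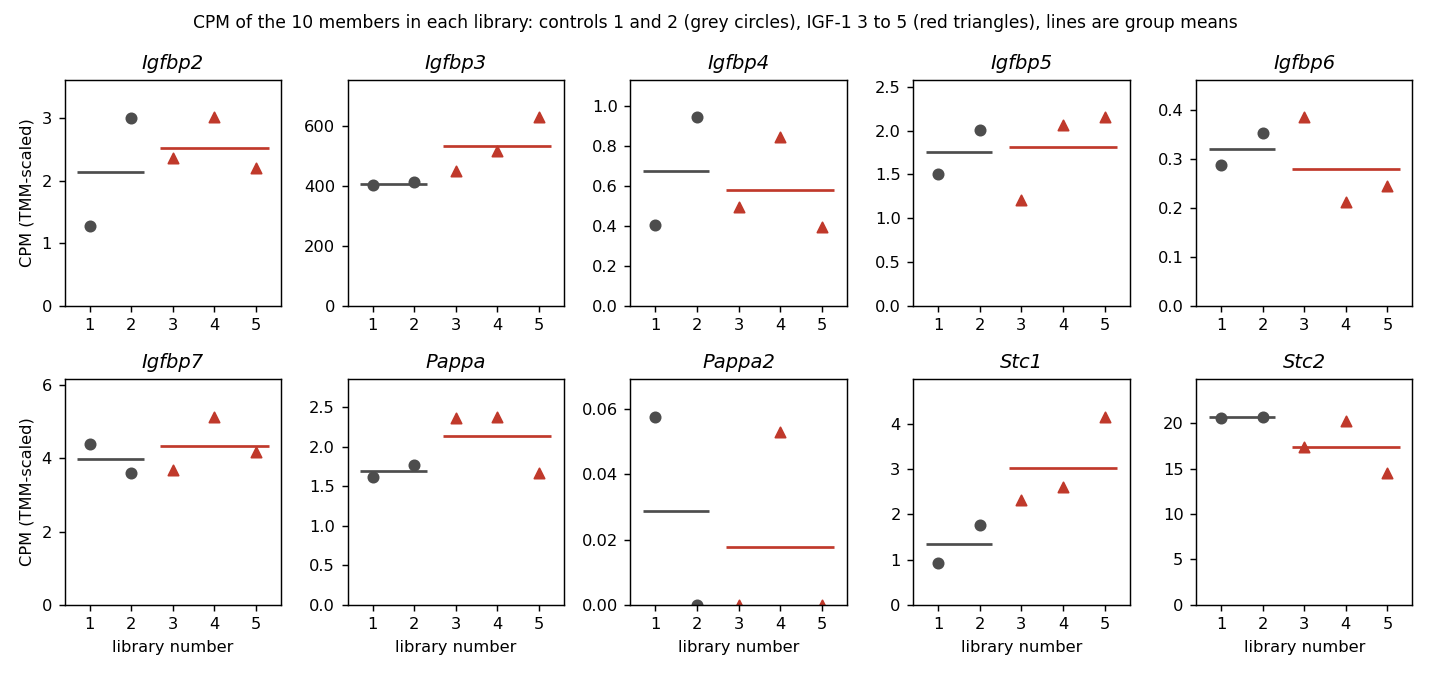
TMM-scaled CPM of the 10 members by library, each panel from 0 on its own linear axis (grey circles, controls 1 and 2; red triangles, IGF-1 replicates 3 to 5; lines, group means). Igfbp3 and Stc1 lie higher in every IGF-1 library than in either control, and both are highest in replicate 5.

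The other 5 binding proteins were rare and showed no call. Igfbp7, a member with low affinity for IGFs that is known from vessels, was read at 4.39 and 3.60 CPM in the controls and at 3.69, 5.14 and 4.16 CPM with IGF-1. The groups overlapped, and the log2 fold change was 0.12 (95% interval -0.36 to 0.59, edgeR adjusted p = 0.855). Igfbp2, which is often abundant in human gliomas, was read at 1.27 and 3.01 CPM in the controls and at 2.37, 3.02 and 2.20 CPM with IGF-1. The 2 controls differed from each other by more than the IGF-1 libraries did, on 22 and 51 counts, and without control replicate 1 the log2 fold change turned from 0.24 to -0.25. Its 95% interval with all libraries ran from -0.54 to 1.03 (edgeR adjusted p = 0.813).

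Igfbp5, a binding protein that attaches to matrix and a substrate of both pappalysins, was at 1.5 and 2.01 CPM in the controls and at 1.21, 2.06 and 2.15 CPM with IGF-1. Its groups overlapped, with a log2 fold change of 0.05 (95% interval -0.69 to 0.80, edgeR adjusted p = 0.963), or -0.09 without replicate 5. Igfbp5 and Igfbp2 are neighbours in the annotation, and both were at no more than 3.02 CPM in every library. Igfbp4, the classic PAPP-A substrate, was at 0.404 and 0.944 CPM in the controls and at 0.496, 0.847 and 0.392 CPM with IGF-1, on 7 to 16 counts. Its interval ran from -1.43 to 0.98 around -0.22 (edgeR adjusted p = 0.895), and without replicate 5 the estimate was 0.0036. These counts leave the direction undetermined.

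Igfbp6, which prefers IGF-2 as its ligand, had 4 to 7 counts per library and was not tested with the others. Its level was 0.289 and 0.354 CPM in the controls and 0.386, 0.212 and 0.245 CPM with IGF-1, and the groups overlapped. The exact Poisson interval for its 5 counts in control replicate 1 ran from 0.0937 to 0.673 CPM. Igfbp1 was looked for and was not among the genes with counts. Summed without Igfbp3, the binding-protein genes came to 7.85 and 9.91 CPM in the controls and to 8.15, 11.3 and 9.15 CPM with IGF-1.

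Both pappalysin genes were rare, and Pappa2 was hardly detected. Pappa was read at 1.62 and 1.77 CPM in the controls, from 28 and 30 counts. With IGF-1 it was at 2.37 and 2.38 CPM in replicates 3 and 4, from 43 and 45 counts, and at 1.66 CPM in replicate 5, between the controls. The log2 fold change was 0.33 with a 95% interval of -0.32 to 0.98 (edgeR adjusted p = 0.677), and 0.49 without replicate 5 (edgeR adjusted p = 0.406). Pappa2 had 1, 0, 0, 1 and 0 counts in libraries 1 to 5, and 3 counts, the one-sided 95% limit that a count of 0 allows, correspond to 0.147 to 0.177 CPM. No difference in Pappa2 was detectable at this depth.

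Of the stanniocalcins, which block PAPP-A, Stc1 lay higher and Stc2 lower in the IGF-1 libraries than in the controls, and neither passed the test. Stc1 was read at 0.923 and 1.77 CPM in the controls, from 16 and 30 counts. With IGF-1 it was at 2.31, 2.59 and 4.16 CPM, from 42, 49 and 85 counts. Every IGF-1 library lay above both controls, and replicate 5 was the highest, at 3.09-fold the control mean against 1.72-fold and 1.93-fold in replicates 3 and 4. The log2 fold change was 1.17 with a standard error of 0.37 and a 95% interval of 0.34 to 2.00, and it did not pass (edgeR adjusted p = 0.222). It was 0.87 without replicate 5 (adjusted p = 0.105), 0.78 without control replicate 1 and 1.71 without control replicate 2.

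Stc2 was at 20.5 and 20.7 CPM in the controls. It was at 17.4, 20.3 and 14.5 CPM in IGF-1 replicates 3, 4 and 5. All 3 lay below both controls, replicate 4 only just so, and replicate 5 was the lowest. The means were 20.6 ± 0.12 CPM (SD, n = 2) and 17.4 ± 2.87 CPM (SD, n = 3), and the log2 fold change was -0.25 with a 95% interval of -0.55 to 0.06 (edgeR adjusted p = 0.489). Without replicate 5 it was -0.13 (adjusted p = 0.519). Stc2 made up 95.7% (Wilson 95% interval 93.1 to 97.3) and 92.1% (89.0 to 94.4) of stanniocalcin counts in the controls. With IGF-1 it made up 88.2% (84.5 to 91.2), 88.7% (85.3 to 91.3) and 77.7% (73.3 to 81.6) in replicates 3, 4 and 5. The summed stanniocalcin level was 21.5 and 22.5 CPM in the controls and 19.7, 22.9 and 18.7 CPM with IGF-1, and overlapped between the groups.

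**Figure D4:**
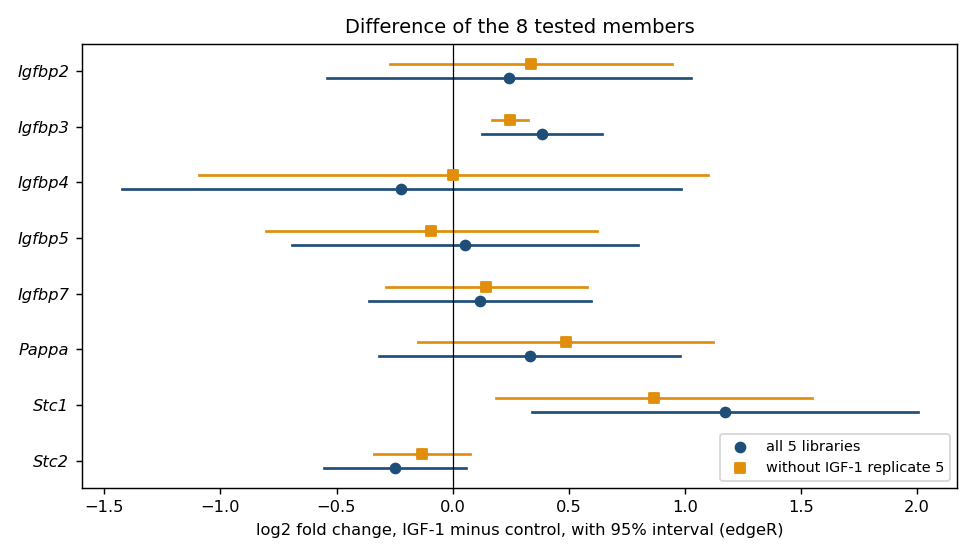
Log2 fold change (IGF-1 minus control) of the 8 tested members with the 95% interval of edgeR's fit, with all 5 libraries (blue circles) and without IGF-1 replicate 5 (orange squares). The interval of Igfbp3 narrows without that library, from 0.13 to 0.64 down to 0.17 to 0.32. Because edgeR moderates variation over all genes, this width does not measure the spread of Igfbp3 alone. The intervals of Igfbp2, Igfbp4, Igfbp5, Igfbp7, Pappa and Stc2 include 0 in both fits.

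The rest of the axis was read from 5 lists of other genes. Over these lists 43 genes were tested, and edgeR called 1 lower and 0 higher, where it called 0.339% of all genes lower and 0.685% higher. The unadjusted counts of each list stand beside shares over all genes of 7.1% higher and 5.57% lower. The medians of the lists stand beside that of all tested genes, which was -0.0076, or -0.0057 without replicate 5. Among ligands and receptors 0 of 5 tested genes passed, with 1 gene higher and 1 gene lower by unadjusted p below 0.05, and the median log2 fold change was 0.12, which turned to -0.05 without replicate 5. Insr and Igf1r, the insulin and IGF-1 receptor genes and the most abundant of that list, averaged 183 CPM each in the controls, and 204 and 199 CPM with IGF-1 (log2 0.16 and 0.12, or 0.09 and -0.05 without replicate 5). The higher gene at unadjusted p was Igf2r, whose receptor clears IGF-2 (0.23, or 0.12 without replicate 5), and the lower was Igfals, whose product joins IGFBP-3 and IGF in the serum complex (-0.64, or -0.68). Igf2r and Igfals were chosen after their values were seen.

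The 2 most abundant by CPM of the other proteases that can cut binding proteins lay far above the pappalysins. Per kilobase, Fap, Plau, Plg and F2 were the only genes of the same list that lay below Pappa. By that measure, Adamts1 averaged 120 and Adam12 55.1 CPM over the libraries, where Pappa averaged 0.178 CPM. Ctsd of the same list, at 60.5 CPM per kilobase, lay above Adam12. Fap, a gene for a membrane-bound serine protease, averaged 0.146 CPM per kilobase and Plau, Plg and F2 at most 0.0606. These 4 genes and Ctsd were chosen after their values were seen. Adamts1 was at 584 ± 19.6 CPM (SD, n = 2) in the controls and 587 ± 65.3 CPM (SD, n = 3) with IGF-1, and Adam12 at 390 ± 19.4 and 445 ± 96.8 CPM. Neither passed (log2 0.01 and 0.19, edgeR adjusted p = 0.984 and 0.618), and without replicate 5 they were at -0.09 and -0.01. Of the 13 genes of that list tested, 0 were called in either direction, and 0 were under 0.05 unadjusted, by edgeR. The median was 0.06, or 0.0034 without replicate 5.

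Among inhibitors of proteases Reck fell. Its membrane-anchored product restrains matrix metalloproteinases, and its level was 48.9 and 52.1 CPM in the controls and 35.6, 33.2 and 35.8 CPM in IGF-1 replicates 3, 4 and 5. The 3 treated libraries lay close together and below both controls. The log2 fold change was -0.53 with a standard error of 0.08 (edgeR adjusted p = 0.0155), and -0.55 without replicate 5 (adjusted p = 2.99e-08). With any single other library left out it stayed between -0.58 and -0.49, with an adjusted p of 0.0646 to 0.371. Of 7 inhibitors tested 0 were called higher and 1 lower, with 1 higher and 1 lower by unadjusted p below 0.05. Their median was 0.15, or 0.02 without replicate 5. The most abundant, the serine protease inhibitor gene Serpine2 (log2 0.15) and the metalloproteinase inhibitor gene Timp2 (0.24), did not pass, and without replicate 5 were at -0.0063 and 0.11.

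Of 8 tested genes with a domain like that of the binding proteins, 0 were called, and by unadjusted p below 0.05 there was 1 lower gene and 0 higher genes. That gene was Ccn1, which encodes a matrix protein of the CCN family, at 4.90 ± 0.418 CPM (SD, n = 2) in the controls and 2.85 ± 0.814 CPM (SD, n = 3) with IGF-1. Its log2 fold change was -0.78 (edgeR adjusted p = 0.222), or -0.77 without replicate 5 (adjusted p = 0.0213). Ccn6, of the same family, was at -0.55 (edgeR adjusted p = 0.544), or -0.29 without replicate 5. The list's median was -0.34, or -0.26 without that library.

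Of 10 tested surface partners 0 were called, with 1 higher and 0 lower unadjusted, and the median was 0.09, or 0.02 without replicate 5. Itgb1, the integrin beta-1 subunit gene, averaged 1541 CPM in the controls and 1611 CPM with IGF-1 (log2 0.06, or 0.04 without replicate 5). Ptprz1, a receptor phosphatase gene of glial progenitors whose product can bind IGFBP-2, averaged 870 and 881 CPM (0.02, or 0.0071). Without replicate 5, 3 of the 42 genes tested over the 5 lists were called higher, among them Timp3 (0.22) and Lrp1 (0.13). In that fit 2 were called lower, Ccn1 and Reck. Over all genes it called 5.49% higher and 3.65% lower. Timp3, another metalloproteinase inhibitor gene, and Lrp1, a gene for an endocytic receptor, were chosen after their values were seen.

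**Figure D5:**
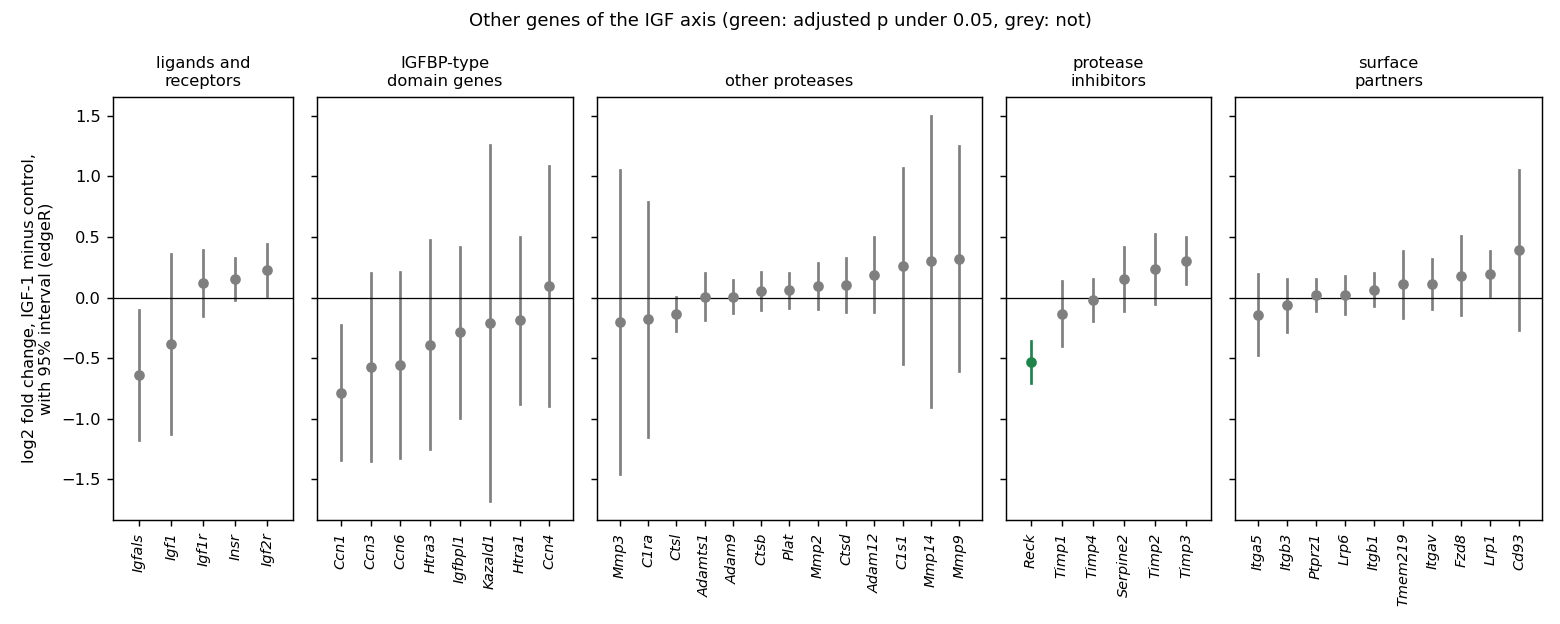
Log2 fold change (IGF-1 minus control) with the 95% interval of edgeR's fit for the reported genes of the 5 lists of other IGF axis genes (green, adjusted p under 0.05; grey, not). Reck, at -0.53, is the gene drawn in green.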

How the data were processed

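Each library's table holds unnormalised read counts for gene symbols, as deposited by the authors. STAR 2.7.9a, featureCounts 2.0.1, cutadapt 3.4 and DESeq2 1.28.1 appear, with build GRCm39, in the submitters' processing notes; roles, settings, strand use and gene annotation are not given in the sources used here. Groups and numbers came from the titles.

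Genes were kept by filterByExpr (minimum count 10, minimum total 15) and tested with edgeR 4.0.16 in R 4.3.3, with TMM factors and the two-sided quasi-likelihood F-test, IGF-1 against control, adjusted by Benjamini-Hochberg over 15919 genes. The standard error is the log2 fold change divided by the square root of F. Alternatives were other scalings and filters, DESeq2 1.42.0, limma 3.58.1 and each library left out. DESeq2 without IGF-1 replicate 5, an offset for transcript length and the comparison of spread among genes of like depth were added after seeing the data. The procedure was tested on counts simulated with the same dispersion for every gene and library. No library was set apart in them, so that test does not cover the departure of IGF-1 replicate 5. Transcript lengths are of APPRIS principal transcripts in GENCODE M21 (GRCm38), found by symbol for 97.5% of tested genes, and windows are RefSeq's on GRCm38.p6.

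Members and lists were chosen with earlier results of these data known. From each list, called genes (at most 4) and the 2 most abundant are named; 1 listed gene is counted but not reported here.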

Additional observations from a re-analysis of the deposited data

How the results depend on the processing

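No paired analysis was possible because the replicate numbers 1 to 5 are not shared between the groups. Over all genes, 109 were called higher and 54 lower. These counts were 385 and 221 with no filter on low counts, 191 and 89 with DESeq2, 480 and 331 with sample quality weights, and 378 and 187 with DESeq2 without IGF-1 replicate 5. With the transcript length offset 85 were lower. With 1 library left out they ranged from 0 to 855 and from 2 to 569. Leaving out control replicate 1 gave 0 higher (680 unadjusted) and 2 lower, control replicate 2 gave 0 (546 unadjusted) and 2, IGF-1 replicate 3 gave 29 and 9, replicate 4 gave 35 and 18, and replicate 5 gave 855 and 569. Such fits with a lone control take its variation to be that of the IGF-1 libraries. The cause of these moves was not tested.

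Members called higher were 0 of 8. With no filter they were 2 of 10 (Igfbp3, edgeR adjusted p = 2.15e-06, and Stc1, edgeR adjusted p = 0.00833), where 385 of 29495 genes were called higher. Igfbp3 alone was called higher with DESeq2, with quality weights and without IGF-1 replicate 5. In these settings 1.6%, 3.02% and 5.49% of all genes were called higher. With 1 IGF-1 library left out, 0 to 1 members were called higher. No member was called lower under any alternative run. Other axis genes called higher were 0 of 43, and 2 of 55 with no filter. They were 2 with quality weights, 1 with DESeq2 without IGF-1 replicate 5, and 0 to 3 with 1 IGF-1 library left out. Those called lower were 1, and 2 with no filter and with quality weights, where 221 of 29495 and 2.08% of all genes were called lower. With 1 IGF-1 library left out, 0 to 2 were called lower.

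Changes of sign among named genes were of values that did not pass. With a library left out, Igfbp2 ranged from -0.25 to 0.99, Igfbp4 from -0.70 to 0.51, Igfbp5 from -0.14 to 0.28, Igfbp7 from -0.0227 to 0.27, Igf1r from -0.0455 to 0.21, Adamts1 from -0.0859 to 0.0728, Adam12 from -0.0052 to 0.28 and Serpine2 from -0.0063 to 0.23. Igfbp4 did not pass the filter without IGF-1 replicate 4. With quality weights Igfbp5 was at -0.0841, Igf1r at -0.0026 and Adamts1 at -0.061. By DESeq2 without IGF-1 replicate 5, Igfbp5 was at -0.0939, Igf1r at -0.0439, Adamts1 at -0.0842, Adam12 at -0.0035 and Serpine2 at -0.0046. With the length offset Adamts1 was at -0.0217 and Ptprz1 at -0.0101. Depth limits Igfbp4, Igfbp6 and Pappa2, at no more than 16 counts in a library.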
